A study of Homo sapiens with 16 samples.

Results

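The data compare promoter nucleosomes of GM12878 cells after 60 min with heat-killed Salmonella typhimurium (HKST) and in untreated cells, over the larger set of promoters. GM12878 is an established human B-lymphoblastoid line, made by transformation of B cells with Epstein-Barr virus. All cells of both groups were grown in RPMI medium with FBS, cross-linked with formaldehyde and lysed to nuclei, and the nuclei of each group were digested in separate tubes with micrococcal nuclease (MNase), 20 U for the light and 200 U for the heavy digest. DNA of mononucleosome size was captured around transcription start sites (TSSs) and sequenced, an approach called mTSS-seq. The untreated samples carry no time of their own, and all samples come from this 1 immortalized line, which expresses viral genes without any stimulus and so models a resting B cell only in part. Members were the promoters with a complete line in all 4 tables of the comparison, 60 min light, 60 min heavy, untreated light and untreated heavy. There were 16260 such promoters of 21857 in all, or 74.4%, with 16193 gene symbols on 23 chromosomes. The 4 tables draw on 8 of the 16 samples of the series, and each table pools 2 replicates.

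DNA wound on a histone octamer is protected from MNase while linker DNA is cut. Nucleosomes that release their DNA under light digestion and are lost under heavy digestion are called MNase-sensitive, and those still recovered after heavy digestion are called MNase-resistant. At an active human promoter the nucleosomes named -2 and -1 lie upstream of the TSS, the nucleosome-free region covers the core promoter, where transcription factors and RNA polymerase II assemble, and the +1 and +2 nucleosomes lie inside the transcribed unit. HKST carries lipopolysaccharide, flagellin and other bacterial products that are read by Toll-like receptors. These receptors signal through MYD88 and the kinase TAK1 to NF-kB, which enters the nucleus once its inhibitor IkB-alpha, the product of NFKBIA, is degraded.

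MNase sensitivity was taken as log2 of light over heavy signal, so that positive values mean sensitive and negative values resistant nucleosomes. Occupancy was log2 of light plus heavy signal. Every change is the 60 min value minus the untreated value on that log2 scale. Below, the sensitive side means a change above 0 and the resistant side a change below 0, whatever the sign of the ratio itself. The signal was read in 5 regions of 150 bp, at the -2 nucleosome (-480 to -330 bp from the TSS), the -1 nucleosome (-280 to -130 bp), the nucleosome-free region (-130 to 20 bp), the +1 nucleosome (70 to 220 bp) and the +2 nucleosome (290 to 440 bp). The unit is rpm, in which centers of fragments falling in windows of 60 bp are scaled to the depth of the table. Depth was 10.1 M fragments in the light and 7.04 M in the heavy table at 60 min, against 9.72 M in the light and 5.12 M in the heavy table of untreated cells. A promoter was tested at a region when it had at least 10 fragments there over the 4 tables, which left 12939, 12840, 9941, 12060 and 12653 promoters from the -2 to the +2 nucleosome. The median tested promoter had 78.6, 76.2, 54.2, 76.3 and 72.5 fragments at these regions.

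With both replicates merged in each table, the spread between them is unknown and no p-value is given. A promoter was called higher or lower when its change was at least 2-fold and its 95% counting interval did not include 0. These intervals cover counting error only. They are computed from fragments without a pseudocount, whereas each change carries a pseudocount of 0.118 rpm, so a change of a thinly covered promoter is smaller than the ratio of its fragments. The extent of digestion in each tube cannot be told apart from the time point. The tables hold no RNA, so neither the cell type nor the response to HKST was checked here against marker transcripts.

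The sequences below show the 130 bases upstream of the TSS in 6 windows, to show the letters of ribosomal protein and taste receptor promoters, the lists at either end of the medians at the nucleosome-free region. They are the 3 largest changes in each list among windows with at least 20 fragments and at most 30 bases of annotated exon, read from the GRCh37 (hg19) reference genome on the strand of the gene. RPL4 lies at chr15:66797194-66797323 on the minus strand, RPL29 at chr3:52029959-52030088 on the minus strand and RPS7 at chr2:3622723-3622852 on the plus strand. TAS2R42 lies at chr12:11339544-11339673 on the minus strand, TAS2R3 at chr7:141463767-141463896 on the plus strand and TAS2R50 at chr12:11139512-11139641 on the minus strand. Of the 6, only the change of RPL4 had a counting interval without 0. Capitals mark matches on either strand to the motif of NF-Y, CCAAT, the ETS factor core, which reads CGGAAG, the GC box, which reads GGGCGG, or the TATA box, which reads TATAAA.
RPL4: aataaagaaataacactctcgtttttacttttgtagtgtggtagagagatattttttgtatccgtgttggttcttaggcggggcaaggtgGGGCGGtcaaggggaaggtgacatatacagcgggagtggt
RPL29: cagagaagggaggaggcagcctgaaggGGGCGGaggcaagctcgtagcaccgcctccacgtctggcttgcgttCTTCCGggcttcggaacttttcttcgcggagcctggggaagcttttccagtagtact
RPS7: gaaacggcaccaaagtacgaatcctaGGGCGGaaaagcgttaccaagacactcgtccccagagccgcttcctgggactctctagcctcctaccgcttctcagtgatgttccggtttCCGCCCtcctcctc
TAS2R42: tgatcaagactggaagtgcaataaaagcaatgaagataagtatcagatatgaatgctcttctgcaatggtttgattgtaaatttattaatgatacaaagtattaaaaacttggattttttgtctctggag
TAS2R3: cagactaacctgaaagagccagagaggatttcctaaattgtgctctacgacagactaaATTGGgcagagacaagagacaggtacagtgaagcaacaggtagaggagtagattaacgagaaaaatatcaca
TAS2R50: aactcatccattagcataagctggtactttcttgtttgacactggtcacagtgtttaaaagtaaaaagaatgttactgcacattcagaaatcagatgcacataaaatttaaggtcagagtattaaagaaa
The ribosomal protein windows held 44.6%, 60.8% and 57.7% GC and each had a GC box. The taste receptor windows held 30%, 42.3% and 32.3% GC, and their only match was a CCAAT of TAS2R3. Among all promoters 45.01% held GGGCGG in this window, 23.1% CCAAT, 13.5% CGGAAG and 5.30% TATAAA. A match is a run of letters and not a bound site.

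The -1 windows below are shown because their promoters stood at the extremes of the comparison, CD74 in sensitivity and NFKBIA in occupancy. CD74 lies at chr5:149792630-149792779 on the minus strand and NFKBIA at chr14:35874091-35874240 on the minus strand, both read as above. Capitals mark a match, on either strand, to a loose form of the NF-kB motif that was found in 14.04% of all -1 windows. CCAAT and TGANTCA (an AP-1 type motif) were searched as well, and were found in 17.5% and 2.92%.
CD74: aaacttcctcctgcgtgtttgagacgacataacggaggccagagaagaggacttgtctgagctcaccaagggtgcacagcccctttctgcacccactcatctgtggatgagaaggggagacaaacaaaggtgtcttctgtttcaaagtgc
NFKBIA: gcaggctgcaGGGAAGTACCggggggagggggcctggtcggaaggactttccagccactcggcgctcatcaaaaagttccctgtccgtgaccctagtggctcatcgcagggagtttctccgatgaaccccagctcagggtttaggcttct
The NFKBIA window held 60.7% GC and a match to the NF-kB motif. The CD74 window held 51.3% GC and none of the 3 motifs.

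Over all promoters the change of sensitivity was small and differed by position. The median change of log2 light/heavy was -0.0071 at the -2 nucleosome, 0.065 at the -1 nucleosome, 0.022 at the nucleosome-free region, 0.0039 at the +1 nucleosome and -0.022 at the +2 nucleosome. The -1 nucleosome was thus the region with the most promoters on the sensitive side, 53.8% of those tested, against 48.7% to 51.1% at the other 4 regions. Its median log2 light/heavy was 0.256 at 60 min and 0.206 in untreated cells. The sum of fragments over promoters gave a -1 change of 0.095 with a counting interval of 0.084 to 0.11, against 0.036 at the -2 and +1 nucleosomes and 0.024 at the +2 nucleosome. At the nucleosome-free region the sum gave -0.0082 with an interval of -0.022 to 0.0052, while its median was 0.022. By chromosome the -1 median ran between -0.073 on chromosome X and 0.15 on chromosome 5.

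**Figure D1:**
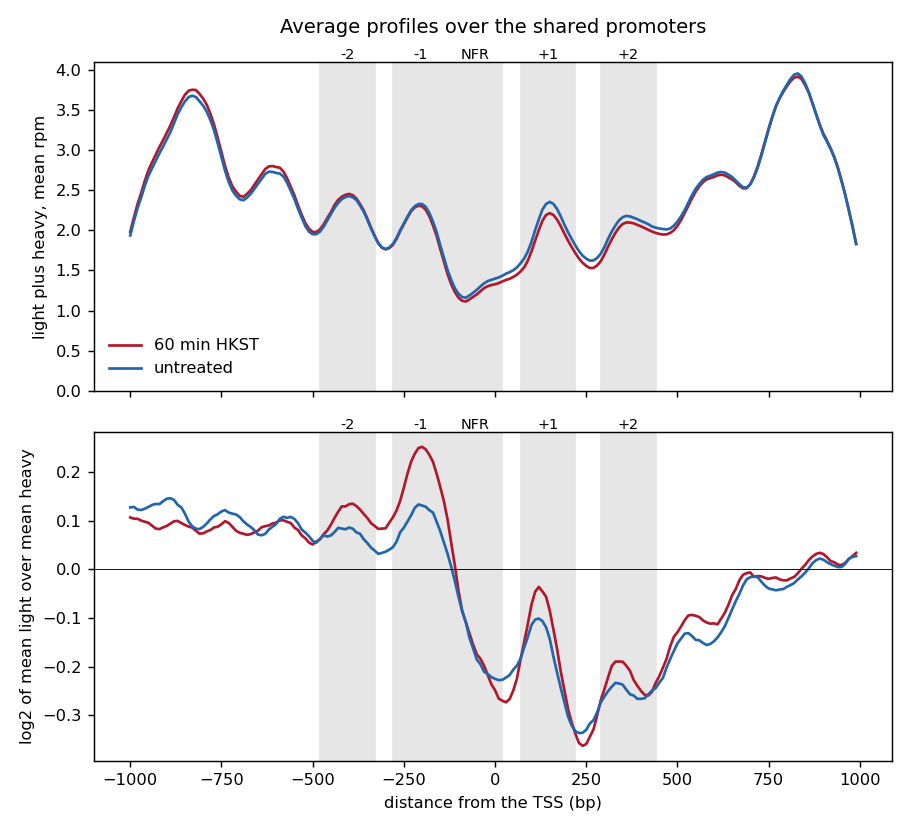
Mean profiles over the shared promoters by distance from the TSS in bp, 60 min HKST and untreated. The upper panel shows light plus heavy signal in rpm, and the lower panel log2 of mean light over mean heavy signal. The nucleosomes on either side of the nucleosome-free region appear in both groups. Taken one by one, the 4 tables had mean values per region between 0.912 and 1.40 rpm.

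Single promoters were spread widely around these medians. The quartiles of the change were -0.46 and 0.46 at the -2 nucleosome, -0.40 and 0.54 at the -1 nucleosome, -0.46 and 0.56 at the nucleosome-free region, -0.45 and 0.47 at the +1 nucleosome and -0.48 and 0.44 at the +2 nucleosome. Few promoters passed both the fold and the counting interval. At the -1 nucleosome 302 promoters, 2.35% of those tested, were called higher and 223, or 1.74%, lower. The corresponding shares were 2.12% and 1.93% at the -2 nucleosome, 1.57% and 2.04% at the nucleosome-free region, 2.01% and 2% at the +1 nucleosome and 1.56% and 2.02% at the +2 nucleosome. Calls to the sensitive side thus outnumbered those to the resistant side most at the -1 nucleosome, and the order was turned at the nucleosome-free region and the +2 nucleosome. With the counting interval alone, 1.61% to 2.69% of promoters per region were higher and 2.24% to 2.59% lower. At its nominal level, counting error alone would leave shares of about this size outside a 95% interval. Exact intervals can cover more than 95% where fragments are few, and the share to be had at these fragment numbers is not given here. Over all promoters the shares beyond the interval were thus near the nominal share of counting error, and any single call may be counting error.

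Occupancy after 60 min was lower downstream of the TSS. The median change of occupancy was 0.029 at the -2 nucleosome, 0.00027 at the -1 nucleosome, -0.045 at the nucleosome-free region, -0.088 at the +1 nucleosome and -0.053 at the +2 nucleosome. At the +1 nucleosome 40.2% of promoters were higher and 59.8% lower. The mean profile was lowest at 90 bp, inside the +1 region, where the change of occupancy was -0.097. Mean +1 signal was 1.19 rpm light and 1.30 rpm heavy at 60 min, against 1.24 rpm light and 1.40 rpm heavy in untreated cells, so both digests were lower. Calls to the higher side outnumbered those to the lower side at the -2 and -1 nucleosomes, and the order was turned at the other 3 regions. At the -2 nucleosome 1.2% of promoters were called higher and 0.611% lower in occupancy, at the -1 nucleosome 0.997% and 0.841%, at the nucleosome-free region 1.03% and 1.44%, at the +1 nucleosome 0.448% and 1.24%, and at the +2 nucleosome 0.885% and 1.19%.

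The changes at the 5 regions of a promoter went together weakly. Across promoters, Pearson's r between the sensitivity changes of 2 regions ran from 0.036 to 0.195, with the highest value for the -1 nucleosome and the nucleosome-free region over 8827 promoters. These regions adjoin and share fragments whose windows span both, and promoters are not replicates. Of 5649 promoters tested at all 5 regions, 255 were higher and 354 lower at every region. In that set 4576 promoters had no sensitivity call, 971 had a call at 1 region, 96 at 2 and 6 at 3 or more.

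Base composition moved with the change. Promoters were put in 5 groups of rising GC content of the 2 kb around the TSS. In the group of lowest GC, up to 48%, the median change of log2 light/heavy was -0.13, -0.070, -0.17, -0.17 and -0.14 from the -2 to the +2 nucleosome. In the group above 62.8% it was 0.021, 0.053, 0.079, 0.11 and 0.057. AT-rich promoters thus had median changes below 0 at all 5 regions, and the others mostly above 0. Occupancy had the opposite order, with 0.14, 0.13, 0.049, 0.028 and 0.083 in the group of lowest GC and -0.089, -0.11, -0.17, -0.17 and -0.17 in that of highest GC. These are changes and not ratios. The median -1 log2 light/heavy at 60 min was 0.55 in the group of lowest GC and -0.37 in that of highest GC. The part of GC content in the results below was not tested, and values adjusted for it are given beside the main lists.

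**Figure D2:**
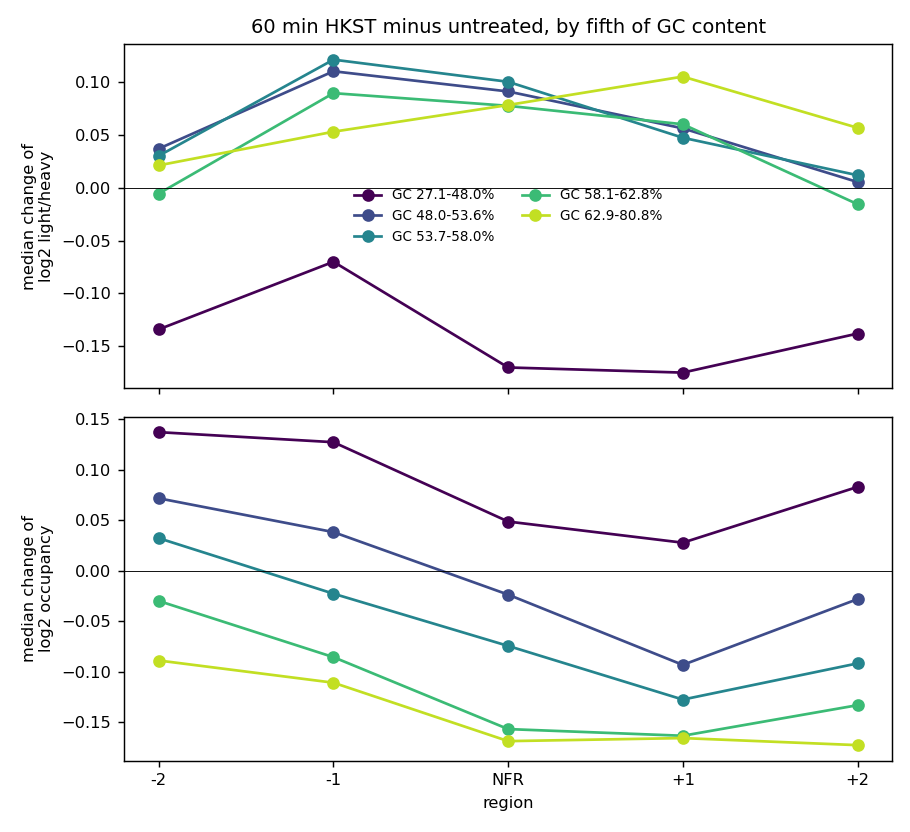
Median change of log2 light/heavy, 60 min HKST minus untreated, at the 5 regions for 5 groups of promoters by GC content of the 2 kb around the TSS. The group of lowest GC lies below 0 at every region, between -0.17 and -0.070.

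Signal moved with the change as well, above all at the nucleosome-free region. There the median change was 0.34 in the group of promoters with fewest fragments, whose median was 14, and it was 0.23, 0.050, -0.12 and -0.17 in the following groups, the last with a median of 163.9 fragments. At the -1 nucleosome the same order ran 0.21, 0.098, 0.043, 0.015 and 0.034. A positive change at the nucleosome-free region was therefore found mainly where few fragments were recovered, and the part of fragment number in the results below was not tested.

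Genes that nearly all cells use stood on the sensitive side after 60 min. The 684 promoters of the lists for ribosomal proteins, proteasome, oxidative phosphorylation, RNA polymerase II initiation, splicing, translation, chaperones, DNA replication and housekeeping were joined as broadly expressed genes, a grouping made after the values of the lists had been seen. Their median change of log2 light/heavy was 0.16, 0.35, 0.53, 0.19 and 0.18 from the -2 to the +2 nucleosome, against -0.0071, 0.065, 0.022, 0.0039 and -0.022 for all promoters. Of 570 tested at the -1 nucleosome 402 were higher, with 24 called higher (4.21%) and 4 called lower (0.702%), against 2.35% and 1.74% of all promoters. At the nucleosome-free region 267 of 394 were higher, with 17 called higher (4.31%) and 1 called lower (0.254%), against 1.57% and 2.04% of all promoters. Both digests differed. At the -1 nucleosome the median change was 0.18 in the light signal and -0.20 in the heavy signal, and at the nucleosome-free region 0.18 and -0.25, so that occupancy changed by 0.053 and 0.063 in the median.

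The same group was on the sensitive side in each group of GC content at the -1 nucleosome, with medians of 0.35, 0.36, 0.40, 0.28 and 0.22 from lowest to highest GC. At the nucleosome-free region the medians were 0.32, 0.66, 0.64, 0.48 and -0.020. The last rests on 20 promoters with quartiles of -0.48 and 0.89, too few to tell whether the GC-richest promoters share the difference there. With the median of the promoter's GC group taken off, the broadly expressed group stood at 0.29 at the -1 nucleosome and 0.48 at the nucleosome-free region. With a minimum of 40 fragments in place of 10 it stood at 0.33 at the -1 nucleosome but at 0.26 at the nucleosome-free region. With a pseudocount of 0.5 of the mean signal in place of 0.118 rpm it stood at 0.23 and 0.22.

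**Figure D3:**
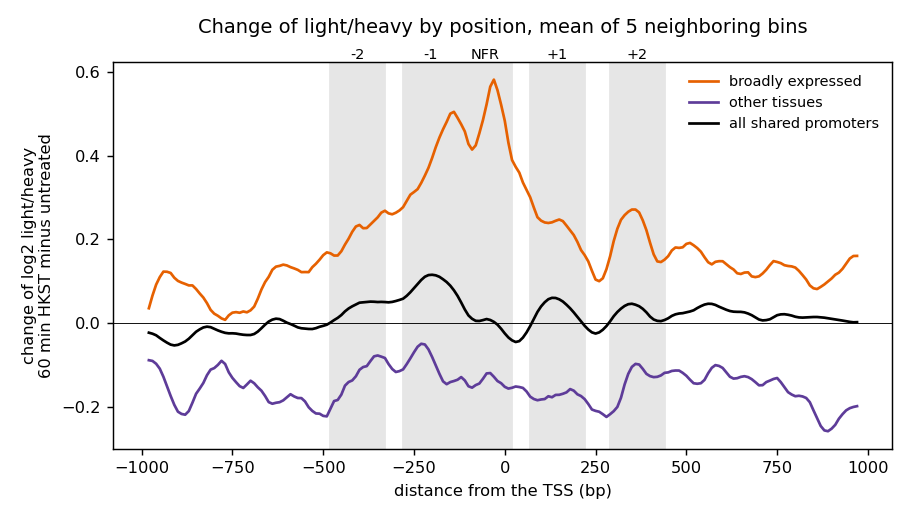
Change of log2 of mean light over mean heavy signal, 60 min HKST minus untreated, by distance from the TSS in bp. Curves are means of 5 neighboring bins for broadly expressed genes, genes of other tissues and all promoters. The broadly expressed genes were highest at -30 bp, at 0.58, and the genes of other tissues were lowest at 890 bp, at -0.26.

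Among these lists the cytosolic ribosomal proteins, the structural proteins of the ribosome, had the highest median change at the nucleosome-free region. Of 63 tested at the -1 nucleosome 45 were higher, with a median change of 0.49, and 6 were called higher and 0 lower, against 2.35% and 1.74% of all promoters. Their median log2 light/heavy there was 1.55 at 60 min and 0.67 in untreated cells. At the nucleosome-free region 40 of 51 were higher, with a median change of 0.97, and 4 were called higher and 0 lower, against 1.57% and 2.04% of all promoters. The median ratio there was 1.55 at 60 min and 0.56 in untreated cells. Only 23 of these 51 promoters had at least 20 fragments at the nucleosome-free region, so this median rests largely on thinly covered promoters. Fragments summed over the list changed by 0.65 at the -1 nucleosome (0.47 to 0.82) and by 0.88 at the nucleosome-free region (0.55 to 1.21). The median change was 0.027 at the +1 nucleosome, where 33 of 60 were higher, and 0.18 at the +2 nucleosome, where 38 of 64 were higher. With the GC groups taken off the medians were 0.37 at the -1 nucleosome and 0.88 at the nucleosome-free region. The ribosomal protein promoters thus differed from all promoters upstream of the TSS far more than at the +1 nucleosome.

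Some members of this list, which also takes in the ribosomal protein-like gene RPL7L1, were called higher at the -1 nucleosome. RPS6, a protein of the small subunit, had 8.54 rpm light and 2.75 rpm heavy at its -1 nucleosome at 60 min, against 6.42 rpm light and 4.96 rpm heavy in untreated cells. The heavy signal was lower and the light signal higher, a change of 1.23 (0.59 to 1.94) with an occupancy change of -0.011. RPL7L1, a ribosomal protein L7-like factor, had 5.68 rpm light and 0.999 rpm heavy at 60 min, against 4.17 rpm light and 2.61 rpm heavy in untreated cells, a change of 1.72 (0.82 to 2.78). The changes of RPL37, RPS14, RPS20 and RPL11 were 1.79 (0.44 to 3.93), 1.78 (0.58 to 3.48), 1.68 (0.65 to 2.93) and 1.02 (0.07 to 2.11). All 6 kept more light than heavy signal at 60 min.

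At the nucleosome-free region RPL21 had 1.57 rpm light and 0.0853 rpm heavy at 60 min, against 1.09 rpm light and 0.599 rpm heavy in untreated cells, a change of 2.30 (0.90 to 9.48). RPL4, whose window is printed above, had 0.837 rpm light and 0.152 rpm heavy at 60 min, against 0.473 rpm light and 0.567 rpm heavy in untreated cells, a change of 2.04 (0.06 to 5.36). The wide intervals come with few heavy fragments, 1.5 for RPL21 and 2.7 for RPL4 at 60 min, where a fragment can count in part because it enters 6 overlapping windows. RPL3 had no heavy fragment at 60 min and 14.3 light fragments, against 2 light and 2.4 heavy fragments in untreated cells. RPL29 had 1.28 rpm light and 0.322 rpm heavy at 60 min, against 0.274 rpm light and 0.287 rpm heavy in untreated cells. Its sensitivity change of 1.71 was within counting error (-0.64 to 4.50), and its occupancy was called higher at 1.34 (0.48 to 2.55). RPS7 had 0.665 rpm light and 0.0332 rpm heavy at 60 min, against 0.147 rpm light and 0.0326 rpm heavy in untreated cells, so its light signal alone was higher.

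**Figure D4:**
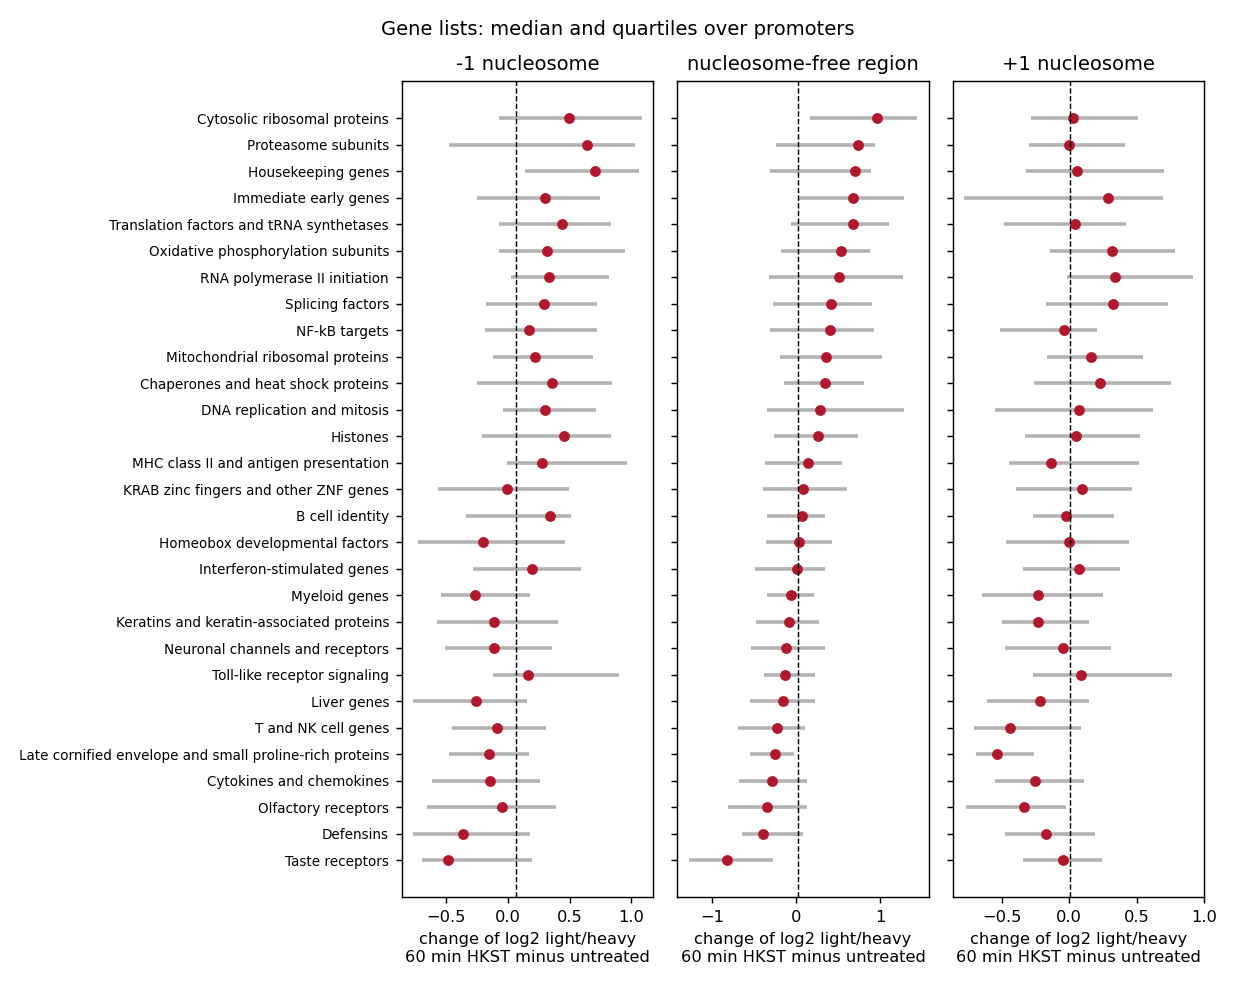
Median change of log2 light/heavy, 60 min HKST minus untreated, with quartiles, for 29 gene lists at the -1 nucleosome, the nucleosome-free region and the +1 nucleosome. The dashed line is the median of all promoters. Ribosomal protein, housekeeping and proteasome promoters lie to the right of it at the -1 nucleosome and nucleosome-free region, and taste receptors lie farthest to the left at the nucleosome-free region, at -0.82.

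The medians of the other lists of broadly expressed genes at the -1 nucleosome and the nucleosome-free region lay on the same side. Proteasome subunits, which degrade ubiquitinated proteins, had a median change of 0.64 at the -1 nucleosome (18 of 27 higher) and 0.74 at the nucleosome-free region (12 of 20 higher). Their summed -1 fragments changed by 0.14 with an interval that included 0 (-0.12 to 0.39). Housekeeping genes had 0.71 at the -1 nucleosome (28 of 37 higher) and 0.70 at the nucleosome-free region, and their +1 occupancy changed by -0.40 in the median, with 28 of 38 lower. Translation factors and tRNA synthetases had 0.44 and 0.68 at these regions, with 48 of 66 and 32 of 44 higher. Oxidative phosphorylation subunits had 0.32 and 0.54, and mitochondrial ribosomal proteins 0.22 and 0.36. Single members went both ways. At the -1 nucleosome UQCR10, a subunit of complex III, was called higher with 2.10 (0.22 to 5.36), while NDUFA2, a subunit of complex I, was called lower with an upper bound of -0.010. Among chaperones BAG6 was called higher with 2.15 (0.17 to 6.80) and DNAJB11, a co-chaperone of the endoplasmic reticulum, lower with -1.51 (-3.83 to -0.12). Genes of DNA replication and mitosis were on the sensitive side at the -2 nucleosome too, with a median of 0.34, 29 of 45 higher, 6 called higher and 0 lower against 2.12% and 1.93% of all promoters.

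RNA polymerase II initiation genes, which encode the polymerase, the general factors and Mediator, were more sensitive at the -1 and the +1 nucleosome, though not at the -2 nucleosome, where their median was -0.032. Of 61 tested at the -1 nucleosome 47 were higher, with a median of 0.33 and no call at the 2-fold limit in either direction. At the +1 nucleosome 45 of 61 were higher, with a median of 0.34, 6 called higher and 1 called lower, against 2.01% and 2% of all promoters. POLR2A, the largest subunit of RNA polymerase II, had 2.72 rpm light and 0.361 rpm heavy at its +1 nucleosome at 60 min, against 1.76 rpm light and 1.03 rpm heavy in untreated cells, a change of 1.86 (0.43 to 4.22). GTF2H1, a subunit of TFIIH, had 2.69 rpm light and 1.38 rpm heavy at 60 min, against 2.68 rpm light and 3.43 rpm heavy in untreated cells, a change of 1.25 (0.42 to 2.29). In GTF2H1 the difference lay in the heavy digest. Splicing factors had medians of 0.29, 0.42 and 0.32 at the -1 nucleosome, nucleosome-free region and +1 nucleosome, with 57 of 79 higher at +1. HNRNPK, a nuclear RNA-binding protein, had 5.53 rpm light and 1.02 rpm heavy at its -1 nucleosome at 60 min, against 3.22 rpm light and 1.67 rpm heavy in untreated cells, a change of 1.41 (0.39 to 2.55).

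The direction shared by the -1 nucleosome and the nucleosome-free region differed between the groups, and no test was made of it. Both regions were higher in 50.4% of the broadly expressed promoters tested at both, in 18.7% of those of other tissues and in 30.1% of all promoters. Both were lower in 10.7%, 39.7% and 27.6%. Among cytosolic ribosomal proteins both were higher in 27 of 45 and both lower in 2, and among RNA polymerase II initiation genes in 21 of 34 and 1. A shared rise was as frequent in some lists outside the broadly expressed group. Both regions were higher in 28 of 51 histone promoters and lower in 9, and in immediate early genes the counts were 6 of 11 and 2. Of the 18 taste receptors tested at both regions, 0 were higher at both and 10 lower at both.

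Promoters of genes used in other tissues stood on the resistant side. The 634 promoters of olfactory and taste receptors, keratins, defensins, late cornified envelope proteins, homeobox factors, neuronal channels, T and NK cell, myeloid and liver genes had median changes of -0.11, -0.15, -0.15, -0.21 and -0.22 from the -2 to the +2 nucleosome, in a grouping likewise made after the values were seen. With the pseudocount of 0.5 of the mean they were -0.053, -0.070, -0.092, -0.12 and -0.12, and with no minimum of fragments -0.076, -0.081, -0.081, -0.13 and -0.15. At the +1 nucleosome 325 of 510 were lower, with 7 called higher and 22 lower, against 2.01% and 2% of all promoters. At the +2 nucleosome 2 were called higher and 21 lower, against 1.56% and 2.02% of all promoters. By GC group the -1 medians were -0.21, -0.25, -0.093, -0.038 and 0.044 from lowest to highest GC. Those of all promoters were -0.070, 0.11, 0.12, 0.090 and 0.053. At the -1 nucleosome the medians of other tissues were thus lower in each GC group, but nearly equal in the highest. At the nucleosome-free region they were -0.24, -0.19, 0.043, 0.033 and 0.20, below 0 only in the groups of lower GC. In the group of highest GC the medians of other tissues were above 0 at all 5 regions. They were 0.12, 0.044, 0.20, 0.061 and 0.12 from the -2 to the +2 nucleosome, on 63, 51, 39, 38 and 41 promoters.

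Taste receptors, the receptors for bitter and sweet compounds of the tongue, had the lowest median change of the 29 lists at the nucleosome-free region, -0.82, with 16 of 19 lower. Their median log2 light/heavy there was -0.11 at 60 min and 0.82 in untreated cells, and their summed fragments changed by -0.68 (-1.01 to -0.34). With the GC groups taken off the median was -0.65. The medians were -0.55 at the -2 and -0.48 at the -1 nucleosome, but -0.045 at the +1 and 0.13 at the +2 nucleosome, so the lower values lay upstream of the TSS. Bitter receptor genes lie in clusters of similar sequence and short fragments from them can be hard to place, so single values are uncertain, as are those of olfactory receptors.

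TAS2R43 had 0.0850 rpm light and 0.538 rpm heavy at its nucleosome-free region at 60 min, against 0.331 rpm light and 0.126 rpm heavy in untreated cells, a change of -2.57 (-10.4 to -0.63). TAS2R20 had 0.301 rpm light and 0.573 rpm heavy at 60 min, against 0.418 rpm light and no heavy fragment in untreated cells, so that its change can be given only as an upper bound of -0.54. These were the 2 taste receptors called lower, and none was called higher, against 2.04% and 1.57% of all promoters. Of the 3 windows printed above, TAS2R3 had 0.751 rpm light and 0.971 rpm heavy at 60 min, against 0.778 rpm light and 0.443 rpm heavy in untreated cells, a change of -1.002 within counting error (-3.0 to 0.70). TAS2R50 had 0.463 rpm light and 0.218 rpm heavy at 60 min, against 0.480 rpm light and 0.0651 rpm heavy in untreated cells. TAS2R42 had 0.347 rpm light and 0.256 rpm heavy at 60 min, against 0.384 rpm light and no heavy fragment in untreated cells. In all 3 the light signal was nearly equal and the heavy signal was higher at 60 min.

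Olfactory receptors, the odorant receptors of the nasal epithelium, differed downstream of the TSS. At the +1 nucleosome 72 of 94 were lower with a median change of -0.33, 1 was called higher and 12 were called lower, against 2.01% and 2% of all promoters. At the +2 nucleosome 66 of 93 were lower with a median of -0.35, 0 called higher and 11 called lower, against 1.56% and 2.02%. The change of their summed fragments was -0.37 (-0.47 to -0.27) at +1 and -0.32 (-0.43 to -0.22) at +2. Their regions were AT-rich, with a median GC of 46.3% at +1 against 62% for all promoters, and with the GC groups taken off the +1 median was -0.17. Late cornified envelope and small proline-rich proteins of the skin had a +1 median of -0.54 with 17 of 21 lower and none called. T and NK cell genes had a +1 median of -0.44, liver genes a -1 median of -0.26 with 0 called higher and 4 lower of 44 (1.74% of all promoters were lower there), and keratins a +1 median of -0.23. G6PC, the glucose-6-phosphatase of liver, had 1.17 rpm light and 2.64 rpm heavy at its +1 nucleosome at 60 min, against 2.42 rpm light and 1.01 rpm heavy in untreated cells, a change of -2.27 (-3.65 to -1.26). KRAB and other zinc finger genes, the list with most members, lay near all promoters with medians of -0.0091 at -1 and 0.079 at the nucleosome-free region.

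Genes of the response to bacteria had no common direction over the 5 regions. The 203 promoters of the lists for NF-kB targets, Toll-like receptor signaling, immediate early genes, interferon-stimulated genes and cytokines had median changes of 0.030, 0.059, -0.046, -0.070 and -0.20 from the -2 to the +2 nucleosome. At the -1 nucleosome 2 were called higher and 2 lower, 1.16% each, against 2.35% and 1.74% of all promoters. NF-kB targets had medians of 0.17 at the -1 nucleosome and 0.40 at the nucleosome-free region, with 12 of 20 and 11 of 17 higher and none called, and intervals of the summed change that included 0 (-0.22 to 0.45 and -0.14 to 0.67). Immediate early genes, which are transcribed within minutes of a stimulus, had 0.68 at the nucleosome-free region with 10 of 14 higher and none called, and 0.63 from summed fragments (0.03 to 1.24). Cytokines and chemokines went the other way, with 43 of 66 lower at the nucleosome-free region (median -0.28) and 47 of 66 lower at the +1 nucleosome (median -0.25). Interferon-stimulated genes had medians of 0.19, 0.013 and 0.071 at the -1 nucleosome, nucleosome-free region and +1 nucleosome.

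NFKBIA, the NF-kB inhibitor, stood with RPPH1 at the lower end of the occupancy changes of the -1 nucleosome, among promoters with at least 40 fragments. Its -1 signal was 0.509 rpm light and 0.237 rpm heavy at 60 min, against 1.60 rpm light and 0.521 rpm heavy in untreated cells. Both digests were lower, an occupancy change of -1.37 (-2.33 to -0.69), and the sensitivity change of -0.60 was within counting error (-2.60 to 2.08). At its +1 nucleosome the signal was 0.767 rpm light and 0.654 rpm heavy at 60 min, against 1.34 rpm light and 1.69 rpm heavy in untreated cells, an occupancy change of -1.04 (-1.75 to -0.44). At its -2 nucleosome occupancy changed by -0.035 (-0.52 to 0.45). The lower signal thus lay at the nucleosomes next to the start site. The TSS is at 35873960 of chromosome 14.

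ISG15, an interferon-induced modifier related to ubiquitin, had 5.88 rpm light and 1.53 rpm heavy at its -1 nucleosome at 60 min, against 2.65 rpm light and 0.925 rpm heavy in untreated cells. Its occupancy was called higher at 1.03 (0.65 to 1.45), with a sensitivity change of 0.46 within counting error. CCL3, a chemokine that B cells release upon activation, had 5.36 rpm light and 0.871 rpm heavy at its -2 nucleosome at 60 min, against 2.83 rpm light and 1.49 rpm heavy in untreated cells, a change of 1.59 (0.56 to 2.89). CCL3 has near-identical gene copies, so its values are uncertain. Its +2 nucleosome had 7.42 rpm light and 1.35 rpm heavy at 60 min, against 4.18 rpm light and 0.808 rpm heavy in untreated cells, an occupancy change of 0.80 (0.48 to 1.15) that did not reach 2-fold. CCL3 was the single sensitivity call among the 57 values of the 14 immune promoters that were looked up by name, of 18 listed, against 1.56% to 2.35% of all promoters called per region and direction. The others, NFKB2, SPI1, TLR4, MYD88, MYC, EGR1, JUNB, CD83, CCL4, IL6 and TNF, had no call in sensitivity or occupancy at any tested region.

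**Figure D5:**
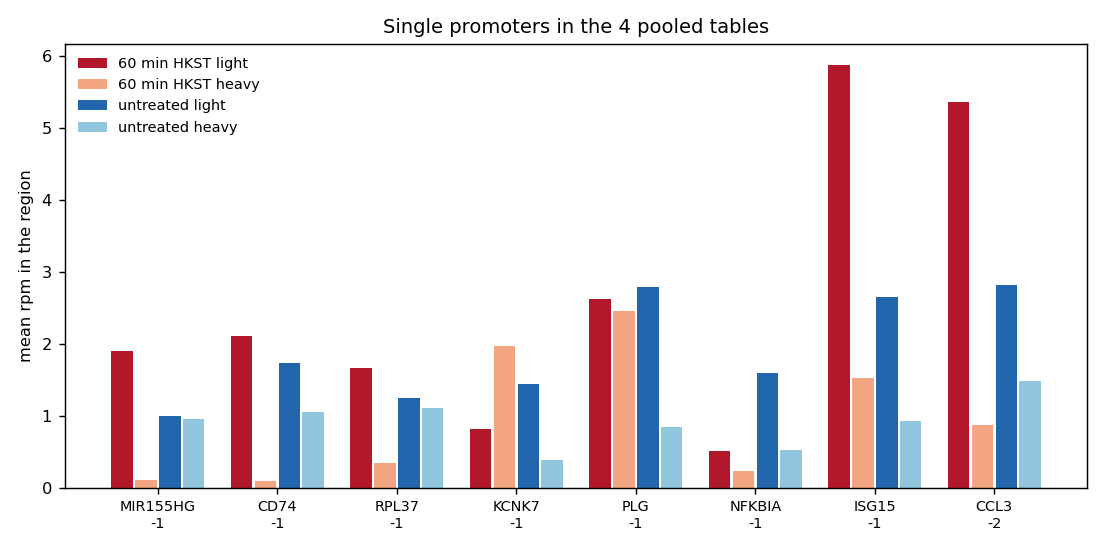
Signal in rpm of the light and heavy digests for 8 named promoters, 60 min HKST left of untreated, at the -1 nucleosome of MIR155HG, CD74, RPL37, KCNK7, PLG, NFKBIA and ISG15 and the -2 nucleosome of CCL3. Heavy signal of CD74 was 0.0913 rpm at 60 min and 1.05 rpm in untreated cells, and both digests of NFKBIA were lower at 60 min.

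A few other promoters of these pathways were called. BCL2A1, an anti-apoptotic NF-kB target, had 1.82 rpm light and 0.260 rpm heavy at its +2 nucleosome at 60 min, against 1.12 rpm light and 1.13 rpm heavy in untreated cells, a change of 2.36 (1.01 to 4.71). TNIP1, which restrains NF-kB signaling, had 2.16 rpm light and 3.17 rpm heavy at its +2 nucleosome at 60 min, against 3.65 rpm light and 1.94 rpm heavy in untreated cells, a change of -1.40 (-2.38 to -0.59). MAP3K7, which encodes the kinase TAK1, had 4.63 rpm light and 0.873 rpm heavy at its -1 nucleosome at 60 min, against 3.28 rpm light and 1.78 rpm heavy in untreated cells, a change of 1.42 (0.40 to 2.73). Among interferon-stimulated genes HERC5, a ligase for ISG15, was called higher at -1 with 1.10 (0.29 to 2.05), and TRIM22 was called lower with -1.85 (-4.86 to -0.26). The 2 directions were thus both found within the response lists.

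B cell genes had higher values at the -1 nucleosome than all promoters. The B cell identity list had medians of -0.061, 0.34, 0.076, -0.020 and -0.14 from the -2 to the +2 nucleosome, with 25 of 41 higher at -1. MHC class II and antigen presentation genes had -0.24, 0.28, 0.14, -0.13 and 0.36, with 19 of 26 higher at -1 and 18 of 27 at +2. In the group of lowest GC content, B cell genes of both lists had a median of 0.24 at the -1 nucleosome and -0.33 at the nucleosome-free region, where 22 were tested. The mean profile of both lists together was highest at -210 bp, at 0.36. CD74, the invariant chain of MHC class II, had 2.11 rpm light and 0.0913 rpm heavy at its -1 nucleosome at 60 min, against 1.74 rpm light and 1.05 rpm heavy in untreated cells, a change of 2.74 (1.45 to 9.80). PAX5, a transcription factor that maintains B cell identity, went the other way with 0.714 rpm light and 1.02 rpm heavy at 60 min, against 0.998 rpm light and 0.358 rpm heavy in untreated cells, a change of -1.68 (-3.86 to -0.02). TAPBPL, a relative of the peptide-loading factor tapasin, was called lower with -1.07 (-2.14 to -0.10). CD79A, a signaling chain of the B cell receptor, was called higher at its +1 nucleosome with 1.22 (0.10 to 2.62) while its occupancy changed by -0.87 (-1.42 to -0.38).

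The largest sensitivity changes at the -1 nucleosome, among promoters with at least 40 fragments there, included genes of the immune response and of other functions. MIR155HG, the host transcript of the microRNA miR-155 that activated B cells produce, had 1.91 rpm light and 0.104 rpm heavy at 60 min, against 1.00 rpm light and 0.955 rpm heavy in untreated cells. Its change was 3.13 (1.45 to 7.16), with an occupancy change of 0.038, so that total signal was nearly equal while the heavy signal was lower and the light signal higher. NR1D1, the clock repressor REV-ERB-alpha, had 2.04 rpm light and 0.208 rpm heavy at 60 min, against 0.878 rpm light and 0.925 rpm heavy in untreated cells, a change of 2.79 (1.32 to 5.48). KCNK7, a potassium channel subunit, had 0.813 rpm light and 1.98 rpm heavy at 60 min, against 1.45 rpm light and 0.391 rpm heavy in untreated cells, a change of -2.79 (-5.42 to -1.44). FAM120AOS and FPR3, a formyl peptide receptor of myeloid cells, also stood among the 3 lowest, with untreated heavy signal of 0 and 0.0140 rpm and upper bounds of -0.66 and -0.62. These changes were read at TSSs 26934456 of chromosome 21 for MIR155HG, 38256978 of chromosome 17 for NR1D1 and 65363467 of chromosome 11 for KCNK7.

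At the -2 nucleosome TMBIM1 and ZDHHC5 were among the promoters with the highest sensitivity changes. ZDHHC5, a protein palmitoyltransferase, had 3.95 rpm light and 0.142 rpm heavy at 60 min, against 3.16 rpm light and 1.60 rpm heavy in untreated cells, a change of 3.04 (1.98 to 7.27). TMBIM1 had 1.31 rpm light and no heavy fragment at 60 min, which bounds its change at 1.13 from below. MYT1, a zinc finger factor of neural cells, was lowest with 0.751 rpm light and 0.886 rpm heavy at 60 min, against 1.08 rpm light and 0.0391 rpm heavy in untreated cells and an upper bound of -1.74. OR2W1 and DPPA3 followed with upper bounds of -0.92 and -0.74.

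At the nucleosome-free region the largest changes rested on few fragments. SPATA4, a gene of the testis, had 2.61 (0.87 to 9.56), MED29, a Mediator subunit that shares its fragments with PAF1, had 2.47 (0.03 to 9.30), and RPL18, which shares them with SPHK2, had 2.41 (0.74 to 9.45). Heavy signal at 60 min was 0.0568, 0.0660 and 0.0812 rpm in these 3, or 1 to 1.3 fragments. On the resistant side, ESRRG, an orphan nuclear receptor, had 0.432 rpm light and 1.86 rpm heavy at 60 min, against 1.34 rpm light and 0.837 rpm heavy in untreated cells, a change of -2.46 (-4.45 to -1.21). MC3R, a melanocortin receptor, had -3.27 (-10.1 to -1.33) and WDR49 -2.49 (-8.79 to -0.42). All 3 lowest promoters had more light than heavy signal in untreated cells and less, or a smaller excess, at 60 min.

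At the +1 nucleosome ANAPC7, a subunit of the anaphase-promoting complex, had 0.671 rpm light and 0.0284 rpm heavy at 60 min, against 0.669 rpm light and 1.22 rpm heavy in untreated cells. Its sensitivity change was 3.19 (1.45 to 9.97) and its occupancy was called lower at -1.29 (-2.29 to -0.57), so the heavy signal was lower and the light signal nearly equal. PPARGC1A, a coactivator of mitochondrial genes, had 0.213 rpm light and 1.12 rpm heavy at 60 min, against 0.728 rpm light and 0.412 rpm heavy in untreated cells, a change of -2.58 (-5.51 to -0.83). GPR149 and MSMB were the other 2 of the 3 highest changes, with 2.99 (1.57 to 7.59) and 2.67 (0.97 to 7.29), and LINC00670 was among the lowest, like PPARGC1A, with an upper bound of -0.70. At the +2 nucleosome MRPS22, a mitochondrial ribosomal protein, had 1.80 rpm light and 0.469 rpm heavy at 60 min, against 0.576 rpm light and 1.26 rpm heavy in untreated cells, a change of 2.69 (1.43 to 4.79). PSMD6-AS2 was lowest with a closed interval, at -3.08 (-7.27 to -1.80), and BPIFA1, a secreted airway protein, had an upper bound of -1.48.

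The promoters with the largest occupancy changes had both digests higher or both lower at 60 min, in some of them mainly one. SLIT2-IT1, a noncoding transcript, had 1.18 rpm light and 0.938 rpm heavy at its -1 nucleosome at 60 min, against 0.638 rpm light and no heavy fragment in untreated cells, an occupancy change of 1.56 (0.90 to 2.56). It was also called lower in sensitivity, with an upper bound of -0.38. SLC25A21, a mitochondrial carrier, had 0.241 rpm light and 0.445 rpm heavy at its +2 nucleosome at 60 min, against 0.278 rpm light and 1.76 rpm heavy in untreated cells, an occupancy change of -1.42 (-2.51 to -0.63) that lay in the heavy digest. CAPZA2, an actin capping subunit, had 1.74 rpm light and 0.545 rpm heavy at its -1 nucleosome at 60 min, against 0.545 rpm light and 0.234 rpm heavy in untreated cells, a change of 1.42 (0.72 to 2.38). RGS12, a regulator of G protein signaling, had 1.94 rpm light and 0.528 rpm heavy at its +1 nucleosome at 60 min, against 0.496 rpm light and 0.154 rpm heavy in untreated cells, a change of 1.75 (1.03 to 2.82). F2R, the thrombin receptor, had 0.344 rpm light and 0.114 rpm heavy at its +1 nucleosome at 60 min, against 0.878 rpm light and 1.04 rpm heavy in untreated cells, a change of -1.82 (-3.08 to -1.06). RPPH1, the RNA of ribonuclease P, had an occupancy change of -1.43 (-2.48 to -0.68) at its -1 nucleosome, in a window that also serves PARP2. CCL18, a chemokine, had an occupancy change of 1.49 (0.62 to 2.63) at its +2 nucleosome. Apart from SLIT2-IT1, none of the promoters named here for occupancy was called in sensitivity at the same region.

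Few promoters were called for sensitivity at 3 or more regions, 6 of the 5649 that were tested at all 5 regions. Whether this exceeds what the call rates per region give was not tested, and no common direction is read from them. Among all 16260 promoters, whatever the number of regions tested, the 9 with such calls were UTS2, LOC100505768, RNASE1, LIN52, PRR14, FPR3, UGT1A4, LOC643406 and MIR204. UTS2, which encodes the peptide urotensin 2, was called lower at the -2, -1 and +2 nucleosomes. At its -2 nucleosome it had 0.939 rpm light and 2.45 rpm heavy at 60 min, against 1.61 rpm light and 1.23 rpm heavy in untreated cells, a change of -1.64 (-3.0 to -0.40). At the -1 nucleosome of MIR204, a microRNA gene, light signal was 0.446 rpm and heavy signal 3.17 rpm at 60 min, against 1.85 rpm and 2.78 rpm in untreated cells, a change of -1.98 (-3.65 to -0.88). RNASE1, LIN52 and UGT1A4 were called in both directions at different regions. FPR3 was called lower at the -1 nucleosome, the nucleosome-free region and the +1 nucleosome, with -1.04 (-2.05 to -0.16) at the last.

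The letters of the promoters differed between the lists in ways the choice of lists did not use. CGGAAG was found in the 130 bases upstream of the TSS in 35.6% of cytosolic ribosomal protein promoters, 28.4% of RNA polymerase II initiation promoters and 25.9% of broadly expressed promoters, against 13.5% of all. TATAAA was found in 20.7% of promoters of other tissues, 56.9% of keratin and 60.9% of late cornified envelope promoters, against 5.30% of all. GGGCGG was found in 19.9% of promoters of other tissues and in 0 of 19 taste receptor promoters. Other lists did not follow this order. KRAB and other zinc finger promoters, which lay near all promoters in sensitivity, held CGGAAG in 26.9%. Histone promoters held TATAAA in 52.9% and CGGAAG in 2.94%. Yet 28 of 51 histone promoters were higher at both the -1 nucleosome and the nucleosome-free region, and 9 lower at both. Promoters with CGGAAG had a median change of 0.22 at the -1 nucleosome and 0.27 at the nucleosome-free region, against 0.040 and -0.0067 for those without it. Among promoters tested at the nucleosome-free region, the median GC of the 2 kb was nearly equal, 53.6% and 53%. The GC of the region itself was not compared. Promoters with TATAAA had a median +1 change of -0.19, against 0.016 for those without it, but the GC content of their 2 kb also differed, 47.2% against 54.1%.

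The tables of cells treated for 40 min share the untreated tables with those of 60 min, so their values are set beside each other and not compared. The broadly expressed promoters had medians of 0.11, 0.25, 0.39, 0.18 and 0.18 from the -2 to the +2 nucleosome at 40 min and 0.16, 0.35, 0.53, 0.19 and 0.18 at 60 min. Cytosolic ribosomal proteins had 0.31 at the -1 nucleosome and 0.90 at the nucleosome-free region at 40 min, and 0.49 and 0.97 at 60 min. The promoters of other tissues had -0.047, -0.072, -0.054, -0.062 and 0.0031 at 40 min and -0.11, -0.15, -0.15, -0.21 and -0.22 at 60 min. Taste receptors had -0.45 at the nucleosome-free region at 40 min and -0.82 at 60 min. The heavy table at 40 min rests on 3.27 M fragments.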

How the data were processed

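The authors aligned paired reads to hg19, counted the centers of fragments of 140 to 200 bp (windows of 60 bp, step of 10 bp) and deposited them, scaled to depth, as rpm values in 200 bins of 10 bp per promoter. Bowtie2 2.2.2, SAMtools and bedtools stand in the submitters' processing notes. Each table pools 2 replicates, grouped by the labels into 60 min HKST and untreated. The untreated heavy table as received ends in a partial line after 16260 complete promoters, which sets the number analysed. Values rise in whole steps (100% within 0.05 of a step), from which fragment numbers and depth were recovered. No column of per-sample values was left unused.

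Region values are means of at least 10 of 15 bins, with a pseudocount of 10% of the mean value. Intervals are exact conditional intervals of the odds ratio for light/heavy and Poisson intervals for occupancy, at 95%. At this depth a median promoter allows only changes of several fold to be told from counting error. The coverage of the intervals was checked on simulated whole fragments at the -1 nucleosome, which do not imitate fragments that count in part. Promoters named are, per region, the 3 highest and 3 lowest called sensitivity changes and 2 highest and 2 lowest called occupancy changes with at least 40 fragments, the highest and lowest called member of each list at the -1 nucleosome with at least 20 fragments, and 18 immune genes. Other called list members, such as RPS6, POLR2A, BCL2A1 and TAS2R43, and promoters called at 3 or more regions were chosen after their values were seen. Some promoters that the rule picks are not reported here. Of promoters, 11.4% lie within 1000 bp of another TSS and share fragments with it, and 80.5% of TSSs lie within 50 bp of a GENCODE transcript start. Members, lists and tests were chosen with earlier results of these data known. Alternatives were the pseudocount, scaling, minimum of fragments, region width, 1 promoter per symbol, thinning to equal depth, summed fragments, the -200 to 0 bp window and the interval alone. Python 3.11.15, numpy 2.4.6, scipy 1.17.1, pandas 2.3.3, numba 0.67.0 and matplotlib 3.10.9 were used. RNA-seq and ChIP-seq data, and 20 min tables, were not used here.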

Additional observations from a re-analysis of the deposited data

How the results depend on the processing

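No paired analysis was possible because each table pools both replicates, so leaving out a replicate was not possible either. Values are in the order of the -2 nucleosome, -1 nucleosome, nucleosome-free region, +1 nucleosome and +2 nucleosome where 5 are given. With a pseudocount of 0.5 of the mean, the median light/heavy change was 0.0092 at -2 and 0.0012 at +2, and that of occupancy was -0.034 at the nucleosome-free region, -0.071 at +1 and -0.041 at +2. The share called higher in light/heavy was then 1.31%, 1.45%, 1.03%, 1.23% and 1.02%, and lower 1.08%, 0.903%, 1.03%, 1.12% and 1.07%. In occupancy it was 0.1005%, 0.0389%, 0.0302%, 0.0249% and 0.0395% higher and 0.0464%, 0.0623%, 0.0805%, 0.0995% and 0.126% lower. With the interval alone, 5.04%, 3.97%, 2.68%, 2.36% and 3.08% were higher and 3.61%, 4.74%, 5.21%, 6.74% and 5.49% lower in occupancy. In light/heavy the interval alone gave 2.50%, 2.69%, 1.61%, 2.31% and 1.94% higher and 2.43%, 2.24%, 2.47%, 2.59% and 2.44% lower.

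With a minimum of 40 fragments the light/heavy median was -0.026 at -2, 0.036 at -1, -0.099 at the nucleosome-free region and -0.025 at +1, and that of occupancy -0.057 at the nucleosome-free region. Then 1.40% were called higher in light/heavy at the nucleosome-free region, 0.742%, 0.529%, 0.237%, 0.135% and 0.390% higher in occupancy, and 0.211%, 0.286%, 0.592%, 0.562% and 0.487% lower. With no minimum the light/heavy median was 0.029 at -1 and 0 at the nucleosome-free region and +2, and that of occupancy 0.0185 at -2, 0 at the nucleosome-free region, -0.045 at +1 and -0.026 at +2. With each table scaled to its own sum, light/heavy was -0.023 at -2, 0.050 at -1, -0.011 at +1 and -0.037 at +2, and occupancy 0.038, 0.0093, -0.0345, -0.078 and -0.043. In regions of 100 bp light/heavy was 0.047 at -1 and -0.030 at the nucleosome-free region, where 1.11% were called higher. Summed fragments gave 0.036, 0.095, -0.0082, 0.036 and 0.024, and the -200 to 0 bp window an occupancy change of -0.028. Without promoters near another TSS, light/heavy was -0.026 at -2, -0.0037 at the nucleosome-free region, -0.019 at +1 and -0.039 at +2. The cause of these shifts was not tested.

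The median light/heavy change of all promoters stayed above 0 at the -1 nucleosome under all of these alternatives, and its direction at the other 4 regions depended on the setting. Of 3199 list and group medians under an alternative, 253 turned direction. Among the light/heavy medians of broadly expressed genes and genes of other tissues, 1 did, that of other tissues at +2 with 40 min in place of 60 min. With the larger pseudocount broadly expressed genes stood at 0.23 at -1 and 0.22 at the nucleosome-free region, and genes of other tissues at -0.092 at the nucleosome-free region, -0.12 at +1 and -0.12 at +2. With no minimum genes of other tissues stood at -0.081 at the nucleosome-free region and -0.13 at +1, and with summed fragments at -0.14 at +2. No called promoter that the naming rule had picked turned direction. Under the alternatives 1050 values of named promoters were kept and 30 were lost to a filter. Alternatives that only keep or drop promoters cannot turn a value. The GC adjustment, the 40 min values and the removal of promoters near another TSS were chosen after seeing the data. The nucleosome-free region, with fewest fragments, is the region where depth limits single promoters most.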
